A study of Rattus norvegicus with 9 samples.

Results

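The neurofilament and axonal microtubule genes described here are 10 genes of the 20194 in the deposited gene table, taken by their symbols in all 9 rat dorsal root ganglion (DRG) libraries. They are Nefl (NCBI gene 83613), Nefm (24588), Nefh (24587), Prph (24688), Ina (24503), Tubb3 (246118), Tubb2b (291081), Stmn2 (84510), Stmn4 (79423) and Mapt (29477). The rats were male Sprague Dawley of 8 to 10 weeks, and the DRGs were those of the lumbar segments on the operated side. The sham group had surgery without nerve injury. In the SNI group (spared nerve injury), the tibial and common peroneal branches of the sciatic nerve were ligated and cut and the sural branch was left whole, so the ganglia held injured and uninjured neurons side by side. The SNI + G15 group had the same injury and received G15, an antagonist of the G protein-coupled oestrogen receptor GPER, through an intrathecal catheter placed 5 days after injury, with a volume of 1 μl and a concentration of 1.8 μg/μl. The labels mark sham and SNI as the controls of G15 and describe drugs dissolved in DMSO and given for 24 h, but do not say which vehicle each control rat received. Each group had 3 libraries. The methods describe the DRGs of 3 rats per group, which were randomly selected, and a supplementary table of the study gives another number. The titles of the 3 SNI + G15 libraries all carry the name SNI1, and what it marks is not stated. Whether each library came from a separate rat is not stated either. The p-values here therefore measure the spread between these libraries.

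Neurofilaments are the intermediate filaments of axons and set the calibre of large myelinated axons. They are built from a light, a medium and a heavy chain, encoded by Nefl, Nefm and Nefh, and in peripheral neurons peripherin, encoded by Prph, joins them. Ina encodes α-internexin, another neuronal intermediate filament protein. Microtubules, polymers of α- and β-tubulin, are the tracks of axonal transport. Stathmins bind free tubulin and promote microtubule turnover, and tau, encoded by Mapt, binds along axonal microtubules. Peripheral nerve injury is known to shift DRG neurons from the neurofilament programme of a mature axon towards tubulins and stathmins of growing axons.

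Library totals lay between 18484557 and 18756736 estimated reads, so depth was alike. The 10 genes took 3.29%, 3.26% and 3.36% of the reads in the sham libraries, 2.76%, 2.74% and 2.83% in SNI, and 2.74%, 2.78% and 2.94% in SNI + G15. The neurofilament triplet alone (Nefl, Nefm and Nefh) took 2.32%, 2.26% and 2.35% in sham, 1.43%, 1.42% and 1.51% in SNI, and 1.38%, 1.41% and 1.53% in SNI + G15. The summed FPKM of 12 general neuron markers lay between 5586 and 6352 in each library. The table names the remaining group of columns as control, and these were read as the sham libraries by elimination, with the same numbers. The extraction protocol in the labels names macrophages treated with exosomes, while the tissue label and the methods give DRG.

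Levels are given in FPKM (fragments per kilobase of transcript, scaled to library size), which is per length and allows genes to be set side by side. In sham, the order of mean FPKM was Nefl (3685 ± 51.8, SD, n = 3), Nefm (2332 ± 60.1), Tubb3 (2295 ± 90.9), Nefh (2177 ± 62.8), Prph (1342 ± 30.3), Stmn2 (1176 ± 37.1), Tubb2b (371 ± 15.5), Mapt (99.2 ± 5.10), Ina (51.0 ± 0.60) and Stmn4 (16.9 ± 0.93). Nefm and Tubb3, and Tubb3 and Nefh, overlapped in their sham values, and the other neighbours in that order did not. Nefl ranked 2 among all 20194 genes in sham, 11 in SNI and 14 in SNI + G15. Tubb3 moved the other way, from rank 12 in sham to 7 in SNI and 8 in SNI + G15, and was the highest of the 10 genes in both injured groups. In SNI, Prph and Stmn2 lay above Nefm and Nefh, whereas in sham they lay below them. Stmn4, the lowest of the 10 in sham at rank 4841, stood at rank 1215 in SNI, above Ina.

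**Figure D1:**
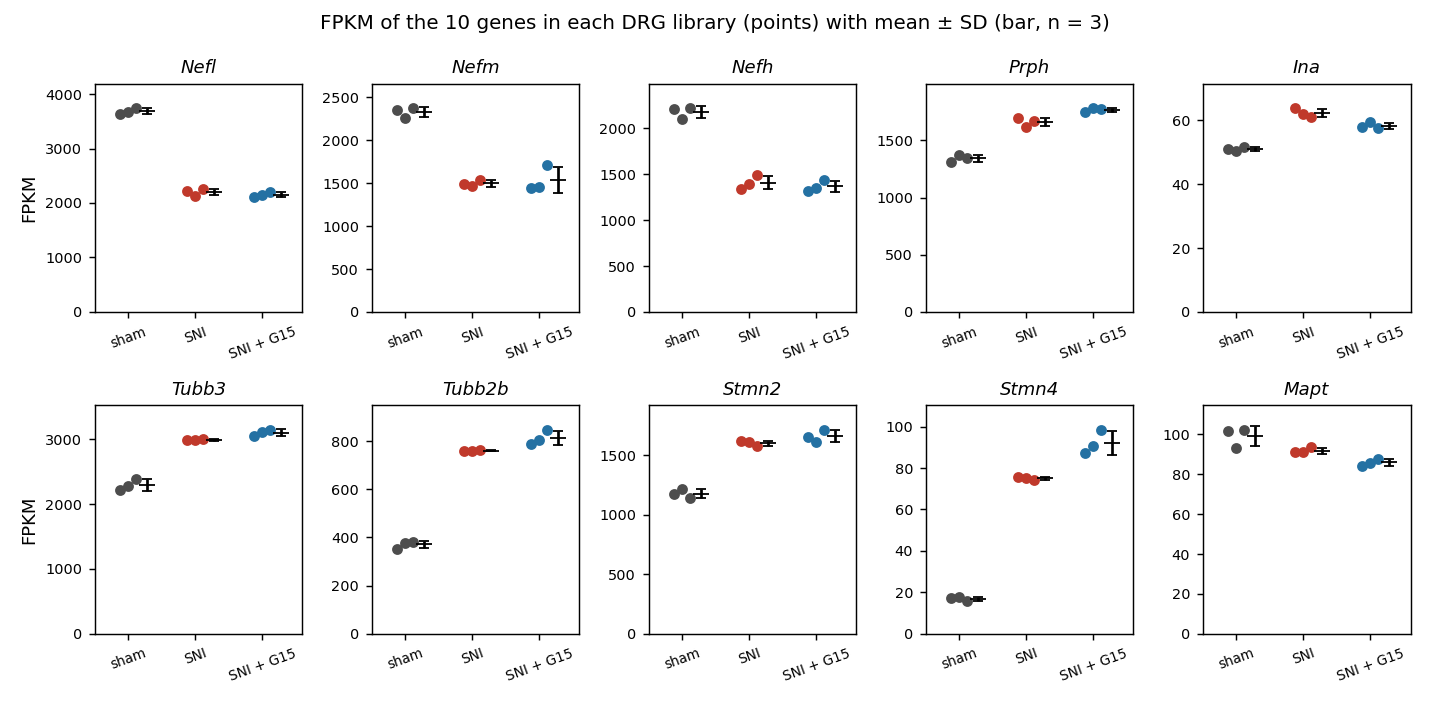
FPKM (y axis, from 0, a scale for each gene) of the 10 genes in each library (points) by group, with mean ± SD (bars, n = 3). In SNI against sham the 3 neurofilament chains are lower, Prph, Ina, both tubulins and both stathmins are higher without overlap, and Mapt overlaps, while most SNI + G15 values lie close to SNI.

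The comparison of SNI with sham asks what nerve injury does to these mRNAs. In edgeR's quasi-likelihood test, all 10 genes passed at an adjusted p below 0.05, 6 higher and 4 lower in SNI, where 45.7% of all 14305 tested genes passed, 23.3% higher and 22.4% lower. The groups did not overlap in FPKM for 9 of the 10, against 53.9% of all tested genes. The median absolute log2 fold change was 0.54 over the 10 genes and 0.18 over all tested genes. Among the 10 genes, the 3 neurofilament chains fell, Prph, Ina, both β-tubulins and both stathmins rose, and Mapt fell by the smallest amount. In whole ganglia, fewer cells of a type and less RNA per cell cannot be told apart.

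Nefl encodes the light chain, on which neurofilaments assemble. Its FPKM was 3640.3, 3673 and 3742 in the sham libraries, 2213, 2135 and 2258 in SNI, and 2104, 2155 and 2196 in SNI + G15. Every sham library lay above every injured library, and SNI and SNI + G15 overlapped. SNI lay 41.5% below sham (a difference of -0.77 on the log2 scale with a standard error of 0.028, adjusted p = 7.30e-09, edgeR). Nefm, the medium chain, had 2358, 2264 and 2376 FPKM in sham, 1487, 1465 and 1541 in SNI, and 1441, 1456 and 1716 in SNI + G15. It was 37.1% lower in SNI than in sham (-0.67 on the log2 scale, standard error 0.028, adjusted p = 2.48e-08). The third SNI + G15 library stood above all SNI libraries for Nefm, and the other 2 lay below all of them. Nefh, the heavy chain whose long phosphorylated tail projects from the filament, had 2207, 2105 and 2219 FPKM in sham, 1343, 1397 and 1486 in SNI, and 1314, 1353 and 1431 in SNI + G15. It fell by 0.66 on the log2 scale between sham and SNI (standard error 0.036, adjusted p = 1.96e-07), or 36.6%. The 3 chains thus fell by similar amounts, with sham and SNI values that did not overlap for any of them.

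Prph encodes peripherin, the intermediate filament of small-diameter sensory neurons. Its FPKM was 1309.8, 1369.9 and 1346 in sham, 1694, 1620.2 and 1671 in SNI, and 1747, 1783 and 1776 in SNI + G15. The 3 groups did not overlap with each other. Prph rose 1.21-fold in SNI against sham (log2 fold change 0.28, standard error 0.030, adjusted p = 2.70e-05, edgeR). Ina, which encodes α-internexin, had 51.0, 50.5 and 51.7 FPKM in sham, 63.8, 61.9 and 61.1 in SNI, and 57.8, 59.4 and 57.5 in SNI + G15, again with no overlap between groups. It rose 1.19-fold in SNI (log2 fold change 0.26, standard error 0.037, adjusted p = 0.000216). Both genes thus rose where the neurofilament triplet fell.

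The β-tubulins rose. Tubb3 encodes the neuron-specific β-tubulin III. Its FPKM was 2215, 2277 and 2394 in sham, 2983, 2986 and 3006 in SNI, and 3049, 3114 and 3146 in SNI + G15, with every injured library above every sham library. The rise in SNI was 1.28-fold (log2 fold change 0.35, standard error 0.030, adjusted p = 5.58e-06, edgeR). Tubb2b, a β-tubulin known from developing and growing neurons, had 353, 379 and 380.4 FPKM in sham, 761, 759 and 762 in SNI, and 789.6, 806 and 847 in SNI + G15. It rose 2.01-fold in SNI (log2 fold change 1.01, standard error 0.036, adjusted p = 6.91e-09), a larger change than that of Tubb3. The spread of Tubb2b between libraries was 1.40 FPKM in SNI, 15.5 in sham and 29.7 in SNI + G15 (SD, n = 3). The estimated counts of Ina, Tubb3, Tubb2b and Mapt were not whole in any of the 9 libraries. Such fractions can come from reads shared out among like sequences, in which case the split between tubulin copies is uncertain. How they arose here is not given. The counts of the other 6 genes were whole throughout.

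Of the 10 genes, 4 matched the RefSeq promoter table of GRCr8 (Prph, Ina, Tubb3 and Tubb2b) and Nefl, Nefm, Nefh, Stmn2, Stmn4 and Mapt did not. The 4 matched genes all rose in SNI, and their sequence before the start sites is given as a description. No gene that fell was matched, so the letters cannot be compared between the directions of change. Each is the 250 bases before the annotated start on the + strand, written 5′ to 3′. Prph lies at chr7:132097039-132097288, Ina at chr1:255837879-255838128, Tubb3 at chr19:68365437-68365686 and Tubb2b at chr17:30952836-30953085. Capitals mark matches on either strand to TATAAA (the TATA box), GGGCGG (the GC box) or CCAAT.
Prph: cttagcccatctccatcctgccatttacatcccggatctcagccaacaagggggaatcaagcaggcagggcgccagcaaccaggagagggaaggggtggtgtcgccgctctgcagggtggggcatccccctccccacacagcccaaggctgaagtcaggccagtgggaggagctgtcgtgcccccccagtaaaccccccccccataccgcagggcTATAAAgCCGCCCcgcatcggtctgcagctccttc
Ina: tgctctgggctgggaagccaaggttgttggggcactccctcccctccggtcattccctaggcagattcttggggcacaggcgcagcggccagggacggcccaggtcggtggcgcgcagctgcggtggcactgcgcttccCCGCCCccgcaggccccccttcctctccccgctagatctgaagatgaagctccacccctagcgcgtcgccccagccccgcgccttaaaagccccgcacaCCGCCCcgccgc
Tubb3: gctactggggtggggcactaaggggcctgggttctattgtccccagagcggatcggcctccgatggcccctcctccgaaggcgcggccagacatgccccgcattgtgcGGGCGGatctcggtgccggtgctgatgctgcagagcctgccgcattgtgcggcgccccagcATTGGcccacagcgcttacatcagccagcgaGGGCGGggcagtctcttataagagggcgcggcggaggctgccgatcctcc
Tubb2b: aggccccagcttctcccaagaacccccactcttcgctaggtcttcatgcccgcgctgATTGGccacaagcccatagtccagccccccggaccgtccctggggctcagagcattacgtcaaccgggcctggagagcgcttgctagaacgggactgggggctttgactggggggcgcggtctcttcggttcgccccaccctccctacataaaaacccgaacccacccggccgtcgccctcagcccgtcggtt

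Prph had a TATAAA match 35 to 30 bases before the start, with a GC box on the reverse strand at 28 to 23. TATAAA was found in 12.9% of all 33469 promoters of this length. Ina had GC boxes on the reverse strand at 111 to 106 and 12 to 7 bases before the start. Tubb3 had GC boxes at 142 to 137 and 50 to 45 and a reverse CCAAT at 81 to 77, and Tubb2b had a reverse CCAAT at 193 to 189. GC boxes were in 30.5% of all promoters and CCAAT in 34%. The AP-1 letters TGACTCA (4.05% of all promoters), the CRE letters TGACGTCA (1.59%) and the Sox letters AACAAT (10.3%), each searched on both strands, were not found in these 4 windows. None of these motifs overlapped another in the 4 windows. The GC content was 64.4% for Prph, 70.8% for Ina, 68.0% for Tubb3 and 65.2% for Tubb2b, against a median of 51.2% over all promoters. The matches are descriptions of sequence and not of binding.

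Stmn2 encodes a stathmin of growth cones. Its FPKM was 1176, 1213 and 1139 in sham, 1622, 1609.9 and 1581 in SNI, and 1657, 1611 and 1715 in SNI + G15. It rose 1.34-fold in SNI (log2 fold change 0.42, standard error 0.029, adjusted p = 1.11e-06, edgeR). Stmn4, a neuronal member of the same family, changed most of the 10. It had 17.3, 17.6 and 15.9 FPKM in sham, 75.6, 75.0 and 74.5 in SNI, and 87.1, 90.5 and 98.5 in SNI + G15. The 3 groups did not overlap, and the estimated counts behind them ran from 333 to 2125 reads per library. Stmn4 rose 4.29-fold in SNI (log2 fold change 2.10, standard error 0.053, adjusted p = 4.27e-10).

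Mapt, the tau gene, had 102, 93.3 and 102 FPKM in sham, 91.1, 91.0 and 93.7 in SNI, and 84.2, 85.9 and 87.8 in SNI + G15. The second sham library lay within the range of SNI. The difference between SNI and sham was -0.13 on the log2 scale with a standard error of 0.040, and passed the test (adjusted p = 0.0217, edgeR). The call was lost without sham replicate 1 (adjusted p = 0.0634), sham replicate 3 (0.0811), SNI replicate 1 (0.0772) or SNI replicate 2 (0.0805), and with limma-trend (0.0830 and 0.0833).

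**Figure D2:**
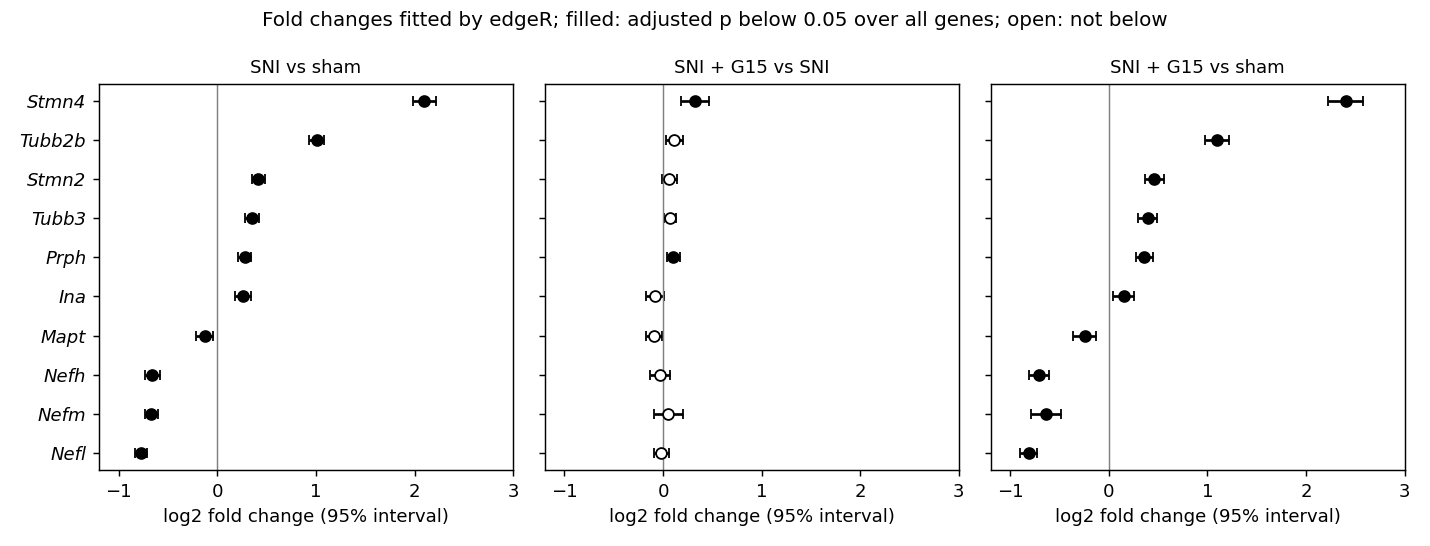
Log2 fold changes (x axis) with 95% intervals for the 10 genes (rows) in the 3 comparisons, fitted by edgeR. Filled points have an adjusted p below 0.05 over all tested genes: all 10 in both comparisons with sham, and Stmn4 and Prph between SNI + G15 and SNI.

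The make-up of the neuronal filament mRNA shifted with injury. Of the FPKM summed over Nefl, Nefm, Nefh, Prph and Ina, which was 9587 ± 137 in sham and 6832 ± 171 in SNI (SD, n = 3), Prph made up 14.0% ± 0.42 in sham and 24.3% ± 0.55 in SNI. Nefl made up 38.4% ± 0.38 and 32.2% ± 0.29. Nefm went from 24.3% ± 0.37 to 21.9% ± 0.05, and Nefh from 22.7% ± 0.42 to 20.6% ± 0.76. Ina remained a minor part, at 0.53% in sham and 0.91% in SNI. The Prph share in SNI + G15 was 25.7% ± 0.84.

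**Figure D3:**
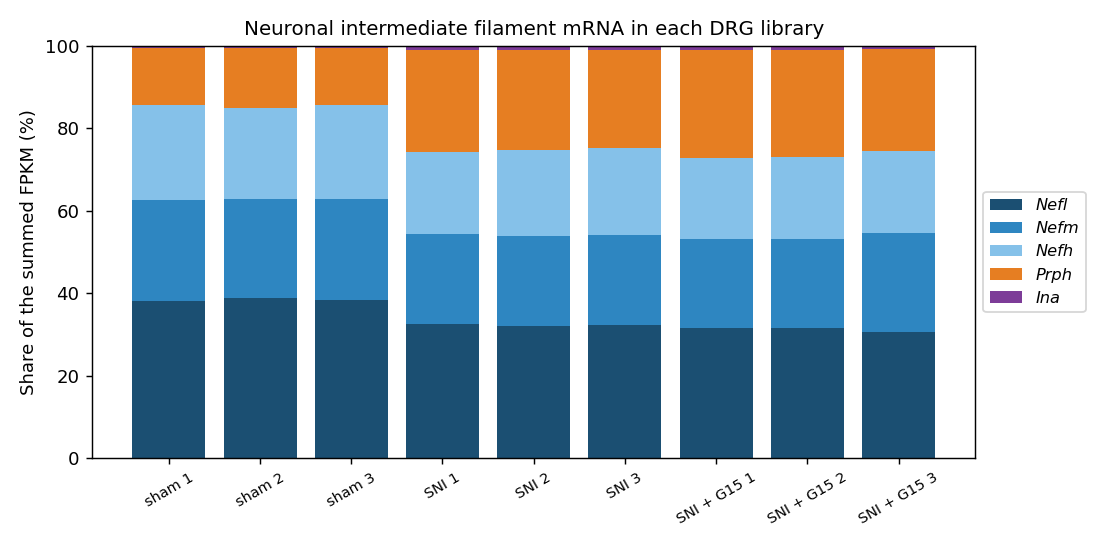
Share of the FPKM summed over the 5 neuronal intermediate filament genes (y axis, %) in each library (stacked bars, x axis). The Prph part is wider and the Nefl part narrower in all 6 injured libraries than in the 3 sham libraries.

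Ratios within a library do not depend on the scaling between libraries. Prph stood at 36.0%, 37.3% and 36.0% of Nefl in the sham libraries, 76.5%, 75.9% and 74.0% in SNI, and 83.0%, 82.7% and 80.9% in SNI + G15. The groups did not overlap, and sham was lowest. Ina over Nefl was 1.40%, 1.37% and 1.38% in sham and between 2.70% and 2.90% in SNI. Among the triplet, Nefm over Nefl ran from 61.6% to 64.8% in sham and from 67.2% to 68.6% in SNI, and Nefh over Nefl from 57.3% to 60.6% and from 60.7% to 65.8%, which in both cases left a narrow gap between the groups. Tubb2b over Tubb3 was 15.9%, 16.6% and 15.9% in sham and 25.5%, 25.4% and 25.3% in SNI. Stmn4 over Stmn2 was 1.47%, 1.45% and 1.39% in sham and 4.66%, 4.66% and 4.71% in SNI. Mapt over Tubb3 was lower in SNI, between 3.05% and 3.12%, than in sham, between 4.10% and 4.60%. With 3 against 3 libraries, the two-sided exact permutation test cannot go below p = 0.1, which 44 of the 51 ratio comparisons reached. No ratio could therefore pass 0.05, and the smallest adjusted p was 0.116.

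**Figure D4:**
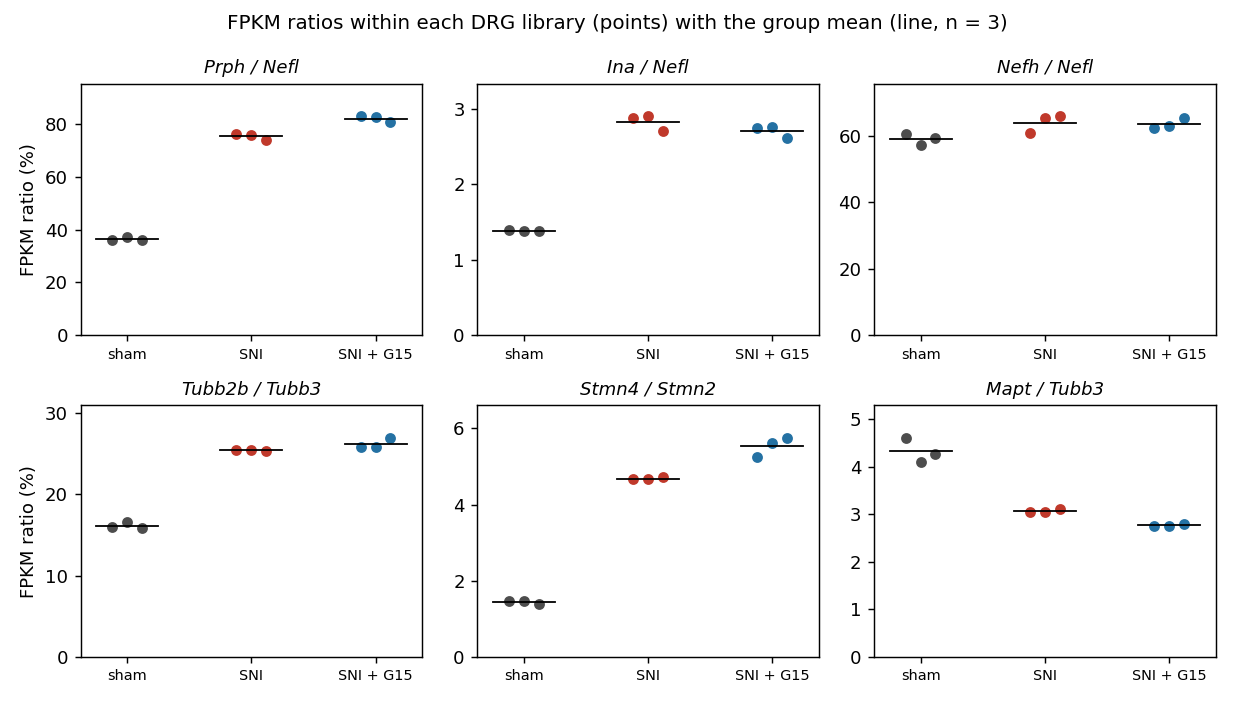
FPKM of a gene as a percentage of the FPKM of another in the same library (y axis, from 0, a scale for each panel), with points for libraries and lines for group means (n = 3). Prph over Nefl, Tubb2b over Tubb3 and Stmn4 over Stmn2 are higher and Mapt over Tubb3 is lower in all injured libraries than in all sham libraries.

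The summed FPKM of the 8 β-tubulin genes was 5710 ± 177 in sham and 7063 ± 45.4 in SNI (SD, n = 3). Of this sum, Tubb3 made up 40.2% in sham and 42.4% in SNI, and Tubb2b went from 6.49% ± 0.08 to 10.8% ± 0.08. Tubb4a and Tubb4b went the other way, from 8.38% to 5.95% and from 15.1% to 10.9%. The summed FPKM of the 4 stathmins was 2060 ± 62.3 in sham and 2593 ± 49.7 in SNI. Of it, Stmn2 made up 57.1% in sham and 61.9% in SNI, Stmn4 0.82% and 2.89%, and Stmn3 31.1% and 24.6%. Because both sums rose, a smaller share does not by itself mean less mRNA of that gene. Stmn4 thus stayed a small part of stathmin mRNA in all groups.

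Markers of the cells in the ganglion moved in the same comparison. Of 12 markers of neurons in general, 7 fell and 5 did not pass the test in SNI. Their median change was -0.15 on the log2 scale. Their summed FPKM was 6119 to 6352 in sham and 5601 to 5799 in SNI. Relative to the geometric mean of these markers in each library, Nefl lay 0.60 lower on the log2 scale in SNI than in sham (-0.60), Nefm -0.49 and Nefh -0.48. On the same measure Prph was 0.46 higher, Ina 0.43, Tubb3 0.53, Tubb2b 1.19, Stmn2 0.60 and Stmn4 2.30, and none of these 9 overlapped between the groups. The geometric mean itself was 142, 137 and 141 FPKM in sham and 127, 125 and 127 in SNI. An unchanged gene would therefore lie higher on this measure in SNI. The share of all genes without overlap on this measure was not computed. Mapt differed by 0.04 on this measure, with overlapping groups (exact permutation p = 0.2).

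Of 10 markers of large myelinated neurons, in which neurofilaments are most abundant, 8 fell, 1 rose and 1 did not pass the test in SNI (median -0.37). The one that rose was Spp1, which encodes a secreted protein that other cells also make, and the summed FPKM of the list, Spp1 included, was higher in SNI (1454 to 1479) than in sham (1104 to 1156). Of 10 markers of small nociceptive neurons, 7 fell and 1 rose (median -0.29), while Prph rose. All 10 markers of injured neurons, which include Atf3, Gap43 and Sox11, rose (median 3.06), and their summed FPKM went from between 220 and 234 to between 1722 and 1762. Schwann cell markers fell (6 of 8, sum 5352 to 5464 in sham and 2991 to 3048 in SNI), and macrophage markers rose (8 of 9, sum 177 to 194 and 386 to 397). Of 7 satellite glia markers 4 rose and 3 did not pass, of 6 fibroblast markers 2 rose and 2 fell, and of 6 endothelial markers 1 rose and 1 fell. No marker was at 0 throughout. The part of these shifts in the changes of the 10 genes was not tested.

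Other cytoskeletal genes changed in both directions in SNI. Of 12 other tubulins, 11 were tested, 5 rose and 3 fell. Tubb6, a β-tubulin that is also on the injured neuron list, rose by 2.10 on the log2 scale (adjusted p = 1.05e-09, edgeR), and Tuba1a, a main neuronal α-tubulin, by 0.39 (adjusted p = 3.88e-07). Tubb4b and Tubb4a fell, with log2 fold changes of -0.19 and -0.22 (adjusted p = 0.000287 and 0.000447). The tubulin genes named here had non-whole counts in all 9 libraries. Of 32 microtubule-associated protein genes, 13 rose, 10 fell and 9 did not pass the test (median 0.07). Map7d1, which recruits kinesin-1, rose by 0.62 (adjusted p = 5.91e-06) and the collapsin response gene Dpysl3 by 0.48 (1.27e-05), whereas Map7d2 (-0.38, adjusted p = 2.12e-05) and Dpysl4 (-0.34, 6.80e-05) fell.

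Of 21 genes of tubulin folding, modification and severing, 19 were tested, 5 rose and 5 fell. Vash2, a tubulin carboxypeptidase that makes detyrosinated tubulin, rose by 1.21 (adjusted p = 0.000106), and Agtpbp1, which removes glutamate chains from tubulin, rose by 0.31 (adjusted p = 4.08e-05). The glutamate ligases Ttll7 (-0.48, adjusted p = 8.33e-07) and Ttll11 (-0.55, adjusted p = 0.00187) fell. Ttll7 had non-whole counts in all libraries. Of 18 axonal motor genes, 3 rose and 7 fell (median -0.10). The kinesins Kif5c (0.37, adjusted p = 9.27e-06) and Kif3a (0.31, 0.000129) rose, and the kinesin light chain Klc1 (-0.59, 2.85e-08) and the dynein intermediate chain Dync1i1 (-0.34, 1.50e-05) fell.

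Of 13 other intermediate filament and linker genes, 9 rose and 2 fell (median 0.30). Gfap, a filament gene of glia, rose by 2.52 on the log2 scale (adjusted p = 5.83e-09, edgeR) and Vim, found in non-neuronal cells, by 0.30 (6.42e-06). Synm (-0.43, adjusted p = 1.55e-05) and Plec, a cytoskeletal linker (-0.18, 0.0340), fell. Of 11 kinase genes that act on neurofilaments and tau, 3 fell and 8 did not pass, and among those that fell were Cdk5r2, an activator of Cdk5 (-0.38, adjusted p = 0.000962), and Mapk3 (-0.15, 0.00267). Over all tested genes, as given above, 23.3% were higher and 22.4% lower.

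SNI + G15 was compared with SNI to ask whether the GPER antagonist changed these mRNAs in injured rats. This comparison shares the SNI libraries with the comparison above. Of the 10 genes, 2 were higher and 8 did not pass edgeR's test, where 15.2% of all tested genes passed, 7.98% higher and 7.25% lower. The groups did not overlap in FPKM for 6 of the 10, against 38.3% of all tested genes. Total FPKM was itself higher in every SNI + G15 library (507831 to 534676) than in every SNI library (484669 to 494296). Its part in small FPKM differences was not tested. Leaving out SNI replicate 1, 2 or 3 lowered the calls over all genes from 2179 to 1098, 925 and 893, and those among the 10 genes from 2 to 1, 0 and 0. The median absolute log2 fold change was 0.07 for the 10 genes and 0.12 for all tested genes.

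Stmn4 rose a further 1.25-fold with G15 (log2 fold change 0.32, 95% interval 0.18 to 0.47, adjusted p = 0.0111, edgeR), and its call was lost without SNI replicate 2 (adjusted p = 0.0535) or SNI replicate 3 (0.0560). Prph rose by 0.10 on the log2 scale (95% interval 0.04 to 0.17, adjusted p = 0.0496). That call held in 3 of 14 alternative fits, and its adjusted p ranged from 0.0368 to 0.190 over them, with 0.0915 in DESeq2 and 0.179 with a replicate block. It was lost without SNI replicate 1, 2 or 3 or SNI + G15 replicate 2.

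The neurofilament triplet did not pass the test and its groups overlapped. The log2 fold change between SNI + G15 and SNI was -0.02 for Nefl (95% interval -0.09 to 0.06, adjusted p = 0.722), 0.05 for Nefm (-0.10 to 0.20, adjusted p = 0.617) and -0.03 for Nefh (-0.13 to 0.08, adjusted p = 0.690). Each interval ended nearer to 0 than the injury change of the same gene. Tubb2b (0.11, 95% interval 0.03 to 0.20, adjusted p = 0.0774), Tubb3 (0.07, 0.01 to 0.13, 0.124), Ina (-0.08, -0.17 to 0.01, 0.181) and Mapt (-0.09, -0.17 to -0.02, 0.101) did not overlap between the groups but did not pass. Stmn2 overlapped and did not pass (0.06, -0.01 to 0.14, 0.221). Tubb2b passed without SNI + G15 replicate 1 (adjusted p = 0.0427) and Mapt without SNI + G15 replicate 3 (0.0346).

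Transcript length moved with this comparison. When the tested genes were divided by effective length into 5 bins of 2861 genes, the median log2 fold change between SNI + G15 and SNI was 0.16, 0.06, 0.01, -0.03 and -0.11 from the shortest to the longest. Stmn4 lay in the first of these, Nefl, Prph, Tubb3, Tubb2b and Stmn2 in the second, Nefm, Nefh and Ina in the fourth, and Mapt in the last. Against a median of 0.06 in the second bin, Prph had 0.10, Tubb2b 0.11, Tubb3 0.07, Stmn2 0.06 and Nefl -0.02. Against -0.03 in the fourth, Nefm had 0.05, Nefh -0.03 and Ina -0.08. Mapt had -0.09 against -0.11, and Stmn4 0.32 against 0.16. Nefl and Nefm thus lay on the other side of 0 from the median of their bin. In SNI against sham the same medians ran only from -0.03 to 0.04. The part of length in the differences was not tested.

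Markers moved here too. Of the 12 general neuron markers, 5 were lower and 7 did not pass in SNI + G15 against SNI, and their geometric mean FPKM was 127, 125 and 127 in SNI and 115, 116 and 116 in SNI + G15. All 6 fibroblast markers were higher (summed FPKM 450.7 on average in SNI and 622 in SNI + G15), and 5 of 8 Schwann cell markers were higher. Of 10 large myelinated neuron markers, 6 were lower and 1 higher (median -0.30), of 10 nociceptive markers 3 were lower and 1 higher, and of 10 injured neuron markers 2 were higher and 8 did not pass. Of 9 macrophage markers 2 were higher and 1 lower, of 7 satellite glia markers 2 and 2, and of 6 endothelial markers 1 and 1. Relative to the geometric mean of the neuron markers in the same library, 7 of the 10 genes were higher with G15 without overlap. They were Stmn4 by 0.42 on the log2 scale, Tubb2b by 0.22, Prph by 0.21, Tubb3 by 0.18, Stmn2 by 0.17, Nefm by 0.16 and Nefl by 0.09. Nefh (0.08), Ina (0.03) and Mapt (0.03) overlapped on this measure. The neuron markers are the denominator throughout, and were themselves lower with G15, so an unchanged gene would also lie higher on this measure. The share of all genes without overlap on this measure was not computed.

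The cytoskeletal lists are given beside the 15.2% of all tested genes that passed between SNI + G15 and SNI. Of 11 other tubulins tested 2 rose, Tuba1c by 0.37 (adjusted p = 0.000597, edgeR) and Tubb6 by 0.33 (0.00281), both with non-whole counts. Of 32 microtubule-associated protein genes 7 fell and 25 did not pass, with Dpysl4 at -0.41 (adjusted p = 0.000800) and Map1b, an axonal microtubule-binding protein, at -0.25 (0.00235). Of 19 folding, modification and severing genes 2 fell, Ttll7 (-0.29, adjusted p = 0.00179) and Agtpbp1 (-0.14, 0.0454). Of 18 motors, Klc1 rose by 0.48 (adjusted p = 0.000875), having fallen in SNI, and 3 fell, among them the kinesins Kif21a (-0.24, 0.00307) and Kif1b (-0.34, 0.0453). Of 13 other filament and linker genes 3 rose and 4 fell, with Vim (0.45, adjusted p = 3.66e-05) and Gfap (0.47, 0.000658) higher and Synm (-0.14, 0.0340) and the linker Macf1 (-0.23, 0.0373) lower. Of 11 kinases 2 fell, among them Gsk3b (-0.26, adjusted p = 0.0115).

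Against sham, SNI + G15 gave 6 higher and 4 lower of the 10 genes, with no overlap for any, where 43.2% of all tested genes passed, 21.4% higher and 21.9% lower, and 52.9% did not overlap. It shares the sham libraries with SNI against sham. Nefl (-0.81, standard error 0.038, adjusted p = 2.22e-07, edgeR), Nefh (-0.71, 0.046, 1.78e-06) and Nefm (-0.64, 0.068, 4.77e-05) were lower. Stmn4 was 5.28-fold higher (2.40, standard error 0.080, adjusted p = 2.13e-08), and Tubb2b (1.10), Stmn2 (0.46), Tubb3 (0.40) and Prph (0.36) were higher. Ina was 0.15 higher (adjusted p = 0.0248), a call lost without sham replicate 1 (0.0764), sham replicate 2 (0.0724) or SNI + G15 replicate 2 (0.0776). Mapt was lower (-0.25, standard error 0.051, adjusted p = 0.00316). From the shortest to the longest length bin, the median log2 fold changes in this comparison were 0.12, 0.02, -0.01, -0.04 and -0.08. Stmn4 lay in the shortest bin and Mapt in the longest, and the part of length was not tested.

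In the cytoskeletal lists of the same comparison, 4 other tubulins were higher and 3 lower, 8 and 12 of the microtubule-associated protein genes, 4 and 4 of the folding, modification and severing genes, and 2 and 10 of the motors. Other filament and linker genes had 7 higher and 2 lower, and kinases 5 lower. Tubb6 (2.41, adjusted p = 3.95e-09) and Gfap (2.96, adjusted p = 2.13e-08) had the smallest adjusted p of their lists.

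Transcripts show which message carried a change. The 10 genes had 26 transcripts in the table, of which 25 were tested, and Prph had 3, Stmn4 8 and Mapt 8 of them. In SNI against sham 11 passed edgeR's test, where 10.3% of 25998 transcripts did, in SNI + G15 against sham 11 (10.4%), and in SNI + G15 against SNI 0 (0.662%), where 4 had an unadjusted p below 0.05. For Prph, the transcript XM_006257322.3 held 90.8% of the gene's FPKM in sham, 91.5% in SNI and 91.3% in SNI + G15, so the rise was carried by the same main message. For Stmn4, NM_001270856.1 held 45.2%, 45.7% and 41.5% and XM_017599806.1 held 35.1%, 36.7% and 34.8%, and both rose in SNI, by 2.14 and 2.19 on the log2 scale. None of the 8 Mapt transcripts passed in edgeR in SNI against sham, and 0 had an unadjusted p below 0.05. Estimates for single Mapt transcripts were unsteady, as NM_017212.2 held from 0.099% to 18.1% of Mapt FPKM within the SNI libraries alone.

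The genes whose pattern over the 9 libraries was nearest to each of the 10 were found by the root-mean-square difference of log2(FPKM + 1) after each gene was centred, among 6907 genes with a mean FPKM of at least 10. For the 4 genes with the closest neighbours, the nearest was Trafd1 (0.024) for Ina, Cbx6 (0.027) for Mapt, Fkbp1a (0.029) for Stmn2 and Rhob (0.030) for Prph. Tuba1a was near to Tubb3 (0.035) and to Stmn2 (0.033), and Tubb6 was the nearest to Stmn4 (0.072). Tuba1a for Tubb3, and Tubb6, were picked out after their values were seen. Among the 10 themselves, Prph and Tubb3 (0.042), Nefm and Nefh (0.057) and Tubb3 and Stmn2 (0.058) lay closest, while Nefl and Stmn4 were 1.42 apart. The 9 points come from 3 groups and share their libraries, so the distance is a description only.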

How the data were processed

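RNA of rat DRG was sequenced as paired 150 bp reads (3 sham, 3 SNI, 3 SNI + G15). The authors deposited FPKM per gene and transcript, the gene value being the sum over transcripts, and estimated counts without normalization, in part fractional. The aligner and annotation are not given in the sources used here. The labels list GRCm38 and mm10, which are mouse builds, so no coordinates of the deposited values are given.

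After rounding, the estimated counts went into edgeR 4.0.16 (quasi-likelihood test after TMM scaling, R 4.3.3), with the 6 libraries of the compared groups, for 14305 genes or 25998 transcripts with FPKM of at least 1 in at least 1 library, with Benjamini-Hochberg adjustment. The methods of the study name DESeq2 (here 1.42.0, an alternative, as was limma 3.58.1). On simulated counts of the 14305 genes in SNI against sham, 99% of 200 genes changed by 1 on the log2 scale were recovered, with 13 false calls. The simulated spread was the same fixed value for all genes, and only well-counted genes were changed. The result therefore does not bear on smaller changes or on the uneven spread between the real libraries. Within-library FPKM ratios were compared by two-sided exact permutation. Promoters came from RefSeq (GRCr8).

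Named genes were the 10 genes, at most 2 genes per direction with the smallest adjusted p in each list, and, by likeness, up to 3 genes per member. Some genes that this rule selects are left out of the text. The genes and lists were chosen with earlier results of these data known. Other deposited files, including group averages and TPM, were not used.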

Additional observations from a re-analysis of the deposited data

How the results depend on the processing

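In SNI against sham, the direction of each of the 10 genes was the same in all 14 alternative fits (another normalization, filter or tool, all 9 libraries, a replicate block, and each library left out), and the number of the 10 called stayed between 9 and 10, Mapt being the gene lost. In SNI + G15 against sham it was also 9 to 10. Between SNI + G15 and SNI the 2 calls fell to 1 with DESeq2 size factors, no filter, an FPKM of at least 5, DESeq2, or limma-trend with a pseudocount of 1 or 0.1, and ranged from 0 to 3 with a library left out: 0 without SNI replicate 2 or 3, 1 without SNI replicate 1 or SNI + G15 replicate 2, and 3 without SNI + G15 replicate 1 or 3. The number of all genes called there, 2179, ranged with a library left out from 893 (without SNI replicate 3) to 2333, with 1098 without SNI replicate 1 and 925 without SNI replicate 2. The cause was not tested. Directions turned for uncalled genes of that comparison, with log2 fold changes of 0.0095 for Nefh without SNI replicate 3, 0.0035 for Nefh and 0.0025 for Nefl without SNI + G15 replicate 1, and -0.042 for Nefm without SNI + G15 replicate 3. With a library left out, Nefm ranged from -0.042 to 0.10 and Nefh from -0.072 to 0.0095.

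With the replicate number as a block, 1 of the 10 genes and 1292 of all genes were called between SNI + G15 and SNI, and 7 (SNI against sham) and 5 (SNI + G15 against sham) of the transcripts of the 10 genes in place of 11. Deviations of same-numbered libraries from their group means correlated between -0.125 and 0.0923, none above 0.1. Whether same-numbered libraries share more than a number cannot be told from this.

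By estimated counts in place of FPKM, chosen after seeing the data, the Prph share of filament mRNA was 9.22% in sham and 16.6% in SNI. At 3 libraries a group, exact tests of single ratios cannot pass 0.05. The transcript table gave 0 calls for the 10 genes between SNI + G15 and SNI, whereas 172 of all transcripts were called by edgeR.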
